A study of Mus musculus with 36 samples.

Results

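The regions described here are the later-intron bins of H3K9me3 in mouse liver. A bin is a stretch of a called H3K9me3 peak, since the authors cut peaks above 500 bases into bins of about that length, and a later-intron bin is one on chromosomes 1 to 19 whose deposited annotation places it in intron 2 or a higher intron of a transcript. Chromatin was immunoprecipitated from the liver of male and female offspring of control-diet dams (C) or of dams with maternal obesity (MO, a Western-style diet), at 3 weeks of age, before weaning, and at 8 weeks, after weaning to chow, with 4 animals in each of 8 groups, so 32 ChIP libraries, and 4 input libraries. The mice were littermate controls of a colony with a floxed Reg3g allele, and whole frozen liver was used, so the mark was measured over all liver cells together, and fewer marked cells and less of the mark per cell cannot be told apart. The 6 deposited tables each list the bins of 1 contrast: MO against C females at 3 weeks, the same at 8 weeks, the same pair in males, and control animals of both ages in females and in males.

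Trimethylation of histone H3 at lysine 9 is laid down by enzymes such as Setdb1 and Suv39h1 and is bound by HP1 proteins, which compact chromatin. It is best known at satellites, transposable elements and clusters of zinc finger genes. Introns are the parts of a gene that are transcribed and then spliced out, and they hold many copies of transposable elements. Bins within 3 kb of a transcription start site (TSS) are promoter bins in the annotation, so introns near a start site are largely outside this class.

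Over the 6 tables, 79298 distinct later-intron bins were listed, in 9182 host genes. The host is the gene of the transcript that the annotation names for the intron. The table of females at 3 weeks held 26564 of them among 133697 autosomal bins (19.9%), and that of females at 8 weeks held 19860 of 109596 (18.1%). Males had 32695 of 158810 at 3 weeks (20.6%) and 17710 of 101386 at 8 weeks (17.5%). The table of control females held 21323 of 114317 (18.7%) and that of control males 29582 of 147360 (20.1%). In both sexes the 8-week table thus listed fewer later-intron bins than the 3-week table. First-intron bins ranged from 8457 to 15611 per table and distal intergenic bins from 38688 to 60476. Each peak was represented by a single bin in a table, so a count of bins is also a count of peaks. How that bin was chosen is not given in the sources used here. If the choice used the comparison of a table, the levels, the sharing of bins and the differences at shared bins would depend on it.

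The level of a bin is the authors' average log2 CPM (read counts scaled to the library total, on a log2 scale) over all libraries of the table, with no value per library. The replicate spread and the signal of the input libraries were therefore not analysed here. The authors' own statistics for maternal diet were not used, so its effect is not analysed here either, and every difference below is a description without a test. Levels of different tables were normalized separately by the authors and cover different sets of bins. Whether CPM refers to all reads of a library or to the reads in counted bins is not given in the sources used here. The median level over autosomal bins was lowest in the table with the most such bins, at 2.03 in males at 3 weeks (158810). It was highest in the table with the fewest, at 2.74 in males at 8 weeks (101386). A dependence of the levels on the number of bins was not tested.

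The sequences of 8 bins are shown because the results turn on them: the strongest bins, and bins with a large difference between the ages in either direction. Each line gives the central 300 bases of the bin in GRCm38, on the plus strand. In the first 5, the capitals mark CG dinucleotides, the site of DNA methylation in mammals.
Gm36264, chr13:9011788-9012087: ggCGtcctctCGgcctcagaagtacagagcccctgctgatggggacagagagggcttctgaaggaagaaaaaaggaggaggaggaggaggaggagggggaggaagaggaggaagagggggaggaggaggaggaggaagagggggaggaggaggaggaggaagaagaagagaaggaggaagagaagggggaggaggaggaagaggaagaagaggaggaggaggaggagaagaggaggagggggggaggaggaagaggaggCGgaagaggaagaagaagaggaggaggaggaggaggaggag
Snx29, chr16:11519058-11519357: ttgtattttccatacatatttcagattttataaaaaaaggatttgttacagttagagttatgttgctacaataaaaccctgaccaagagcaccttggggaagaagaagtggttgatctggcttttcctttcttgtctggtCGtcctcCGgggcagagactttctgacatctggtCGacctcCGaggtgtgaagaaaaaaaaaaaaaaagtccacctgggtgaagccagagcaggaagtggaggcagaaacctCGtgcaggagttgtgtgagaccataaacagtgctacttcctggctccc
Acnat1, chr4:49466804-49467103: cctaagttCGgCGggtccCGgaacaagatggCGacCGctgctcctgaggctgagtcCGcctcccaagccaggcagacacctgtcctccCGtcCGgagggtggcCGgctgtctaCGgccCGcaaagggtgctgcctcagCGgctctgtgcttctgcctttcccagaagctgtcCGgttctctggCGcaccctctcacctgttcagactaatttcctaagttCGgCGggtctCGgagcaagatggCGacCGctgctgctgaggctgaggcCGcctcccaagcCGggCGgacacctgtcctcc
Cyp3a16, chr5:145443377-145443676: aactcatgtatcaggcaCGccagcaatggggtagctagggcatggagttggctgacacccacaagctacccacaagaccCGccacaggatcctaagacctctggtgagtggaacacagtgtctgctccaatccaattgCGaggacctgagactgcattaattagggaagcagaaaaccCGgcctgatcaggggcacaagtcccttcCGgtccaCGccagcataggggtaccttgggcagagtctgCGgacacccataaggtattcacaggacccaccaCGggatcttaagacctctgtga
Arid5b, chr10:68202325-68202624: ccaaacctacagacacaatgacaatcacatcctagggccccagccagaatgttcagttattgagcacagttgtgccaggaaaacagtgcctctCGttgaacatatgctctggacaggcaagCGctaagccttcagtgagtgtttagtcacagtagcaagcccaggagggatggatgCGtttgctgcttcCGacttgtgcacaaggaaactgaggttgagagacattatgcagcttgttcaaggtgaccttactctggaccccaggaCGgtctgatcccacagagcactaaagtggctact
In the next 3 the capitals mark a run of 30 bases, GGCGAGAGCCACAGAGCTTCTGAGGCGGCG, that the 3 bins share on either strand.
Zfp160, chr17:21035700-21035999: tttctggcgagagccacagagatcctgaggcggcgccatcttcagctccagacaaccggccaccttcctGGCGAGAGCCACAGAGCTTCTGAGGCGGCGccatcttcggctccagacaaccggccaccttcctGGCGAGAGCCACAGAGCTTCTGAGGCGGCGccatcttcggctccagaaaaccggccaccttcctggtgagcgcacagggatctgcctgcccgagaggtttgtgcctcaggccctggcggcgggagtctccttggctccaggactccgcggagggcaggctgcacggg
Gm4924, chr10:82411435-82411734: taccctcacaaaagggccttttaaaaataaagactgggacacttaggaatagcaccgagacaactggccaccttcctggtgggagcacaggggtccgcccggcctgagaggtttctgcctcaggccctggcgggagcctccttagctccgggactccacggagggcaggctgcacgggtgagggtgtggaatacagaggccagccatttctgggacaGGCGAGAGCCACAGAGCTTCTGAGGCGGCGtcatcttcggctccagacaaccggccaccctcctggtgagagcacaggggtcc
Pclo, chr5:14552366-14552665: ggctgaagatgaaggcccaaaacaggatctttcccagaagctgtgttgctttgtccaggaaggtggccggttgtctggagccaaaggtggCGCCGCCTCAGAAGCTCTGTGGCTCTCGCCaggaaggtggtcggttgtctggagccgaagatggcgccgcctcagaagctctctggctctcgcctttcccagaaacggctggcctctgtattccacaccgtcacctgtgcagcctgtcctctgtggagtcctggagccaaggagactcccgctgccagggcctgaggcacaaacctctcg
The bin of Gm36264, a predicted gene, holds a purine-rich stretch of GGA units, was masked at 63.4% and has 3 CG in the 300 bases shown. The stretch of Acnat1 holds 22 CG and that of Arid5b, which is free of masked repeats, holds 5. The bins of Zfp160 and Acnat1 lie wholly or nearly wholly in repeats masked in the genome (100% and 95.6% of bases).

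The strongest later-intron bin was the same in all 6 tables. It lies in intron 2 of 2 of Gm36264, at chr13:9011707-9012168, with the start site of Gtpbp4 the nearest. In females its average log2 CPM was 8.74 at 3 weeks and 9.38 at 8 weeks, in males 8.50 and 9.65. It was 9.31 in the control female table and 8.99 in the control male table. The next highest later-intron bin of any table was at 5.61.

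After it came bins of genes with varied functions. The bin in intron 14 of 20 of Snx29, a sorting nexin gene, was at 5.13 in females at 8 weeks, 3.95 in males at 3 weeks and 5.26 in males at 8 weeks. Females at 3 weeks had no bin overlapping it by 50%. Zfp160, a zinc finger gene, had its bin in intron 4 of 4 (chr17:21035600-21036100), at 3.92 in males at 3 weeks and 5.61 at 8 weeks, and females had no bin there. The bin in intron 2 of 5 of Rlf, another zinc finger protein gene, was at 5.51 in males at 8 weeks and 4.61 in control males, and was listed in no other table. Acnat1, an acyltransferase gene, had its bin in intron 2 of 3, at 4.83 in the control female and 4.76 in the control male table.

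Mcf2l, which encodes a guanine nucleotide exchange factor, held a bin in intron 3 of 29 at 3.65 in females at 3 weeks and 4.96 at 8 weeks. Atrnl1, attractin-like 1, held one in intron 26 of 28 at 4.17 and 4.31, and Zfp942 one in intron 2 of 5 at 4.04 and 4.13. Atrnl1 had no such bin in males, whereas that of Zfp942 was at 3.75 in males at 3 weeks and 4.17 at 8 weeks.

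**Figure D1:**
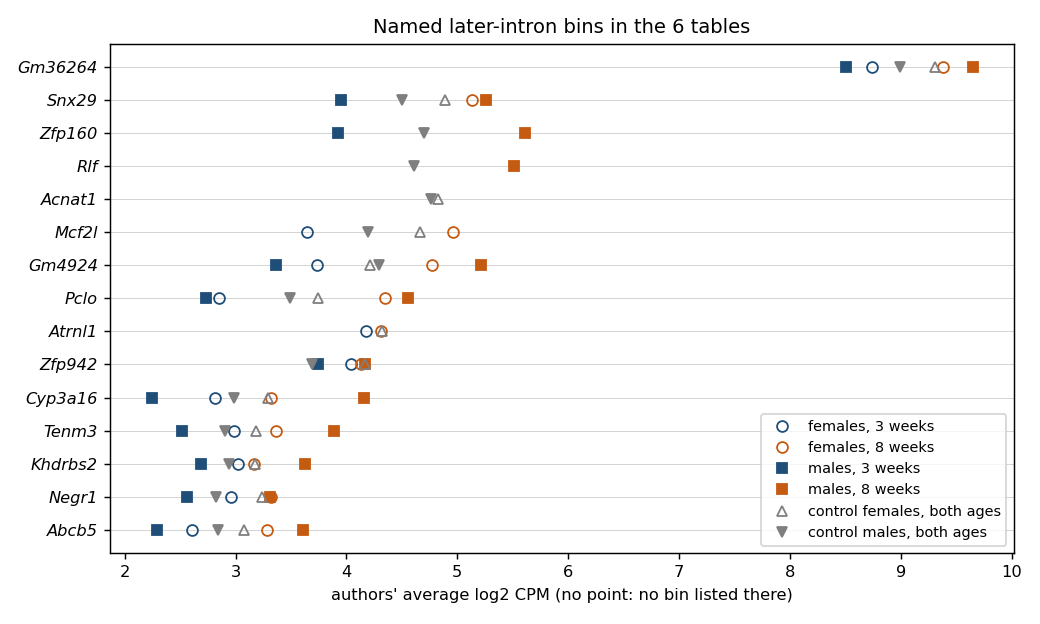
Authors' average log2 CPM (x axis) of 15 named later-intron bins, one row per host gene, with one point per table; a missing point means that no bin overlapping by 50% was listed. The Gm36264 bin sits at 8.50 to 9.65, and the 8-week points lie to the right of the 3-week points of the same sex in each of these rows that has both; bins with the opposite difference are not plotted.

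Identical coordinates in all 6 tables were found for 8 later-intron bins, since peaks had been called separately in each sex. The 5 with the highest mean level belonged to Gm36264 (mean of the 6 averages 9.09), Tenm3 (3.14), Khdrbs2 (3.10), Negr1 (3.04) and Abcb5 (2.95). Tenm3 and Negr1 encode neuronal adhesion proteins, Khdrbs2 an RNA-binding protein and Abcb5 a transporter. The Tenm3 bin, in intron 2 of 28, was at 2.98 and 3.37 in females at 3 and 8 weeks and at 2.51 and 3.88 in males. With an overlap of 50% of the shorter bin, 19.1% of the bins of females at 3 weeks were found in all the other tables, and 25.5% of those at 8 weeks. In males these shares were 15.5% and 28.5%. Between the ages of one sex, 49.4% of the female 3-week bins recurred at 8 weeks and 66.1% of the 8-week bins at 3 weeks. For males the shares were 37.7% and 69.6%. The same peak, whichever of its bins was listed, recurred at 3 weeks for 85.3% of the 8-week bins in females and 93.7% in males, and at 8 weeks for 64.9% and 52.2% of the 3-week bins.

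The median level of later-intron bins was far below these. For females it was 2.37 at 3 weeks and 2.57 at 8 weeks, for males 2.00 and 2.69. It was 2.60 in the control female and 2.04 in the control male table. In females at 3 weeks the middle 50% of bins lay between 2.23 and 2.55, and 1% exceeded 3.13. First-intron bins had medians of 2.37, 2.56, 2.01 and 2.68 in the same 4 tables of females and males, within 0.01 of later introns. Distal intergenic bins were higher in each table, with 2.43, 2.66, 2.07 and 2.77.

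**Figure D2:**
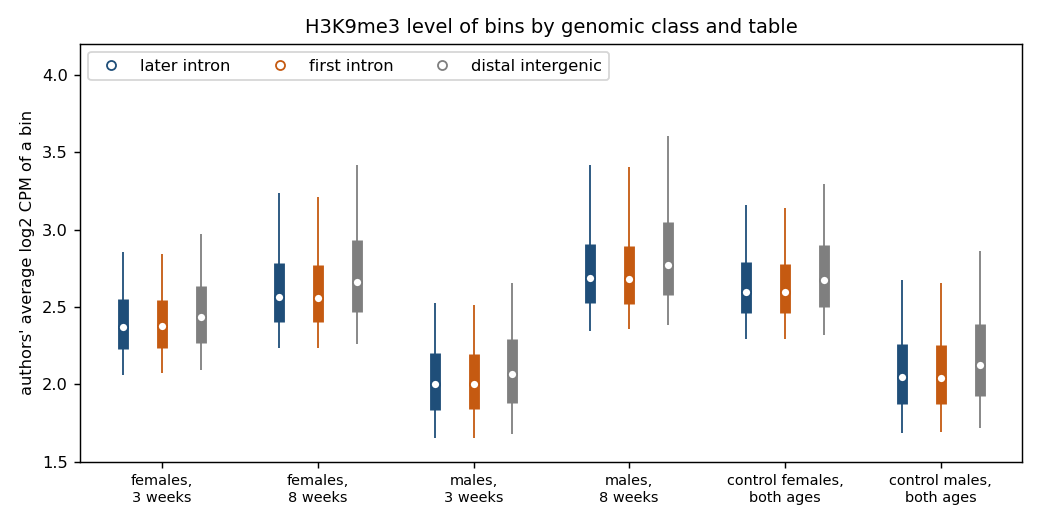
Authors' average log2 CPM per bin (y axis) for later-intron, first-intron and distal intergenic bins in each of the 6 tables; points are medians, thick bars run from the 25th to the 75th and thin bars from the 5th to the 95th percentile of bins. Later and first introns coincide, and distal intergenic bins reach higher.

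The median length of the intron that held a bin was 22.3 kb, the median distance to the nearest splice site 4.74 kb, with 18.0% of bins within 1 kb of one, and the median distance to the nearest TSS 22.6 kb. Intron 2 held 28.1% of the bins, intron 3 16.9% and introns from the 10th on 20.8%, and 15.9% lay in the last intron. Along the intron the bins were spread with a dip at both ends, since of 5 equal parts of the intron the one at the 5′ end held 16.8%, the middle one 22.3% and the one at the 3′ end 17.9%. Bins that touch an exon may have been placed in another class, and their part in the dip was not tested. The highest intron number belonged to Gm11639, a predicted gene with 187 introns, whose bin was at 2.24 in males at 3 weeks and 2.33 at 8 weeks. The bin farthest from a start site, 1781 kb away, was in intron 2 of 2 of 9330185C12Rik, at 1.73 and 2.52 in males.

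Per Mb of annotated intron, in the longest transcript of each autosomal gene, later introns held 33.8 bins in females at 3 weeks and 25.3 at 8 weeks, and 41.6 and 22.6 in males. First introns held 36.5, 27.3, 44.7 and 24.2. Later introns under 5 kb held 22.2 bins per Mb in females at 3 weeks, those of 5 to 20 kb 39.6, those of 20 to 100 kb 39.9 and those over 100 kb 29.3. The fewest bins per Mb were thus in the shortest introns, which was also so in first introns (10.1 under 5 kb against 45.5 at 20 to 100 kb). In first introns the promoter class takes the bases nearest to the start site. The 145946 later introns under 5 kb cover 195 Mb, so many are short beside a bin. How a bin that touches both an exon and an intron was assigned is not given in the sources used here. Its part in the low number of bins in short introns was not tested. Bins under 5 kb of intron made up 16.5% of later-intron bins and 2.44% of first-intron bins in that table.

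**Figure D3:**
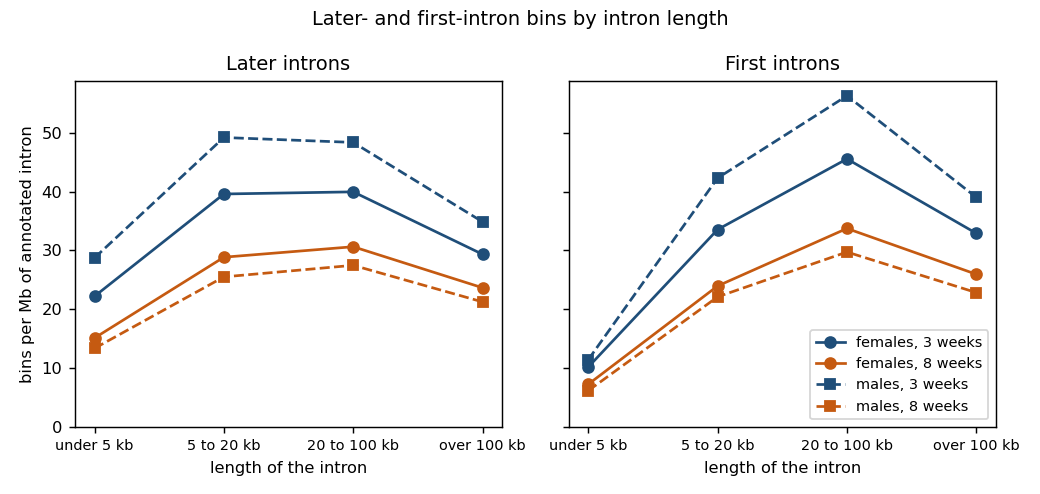
Bins per Mb of annotated intron (y axis, from 0) against the length of the intron, for later introns (left) and first introns (right) in the 4 tables of females and males at 3 and 8 weeks. All lines are lowest under 5 kb, and the 3-week lines lie above the 8-week lines.

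The relation of the level to place in the gene and to sequence was weak. Spearman's rho of the level with intron number was between -0.03 and 0.00 over the 6 tables, and with the distance to the TSS between 0.08 and 0.14. These correlations are across bins, from 17710 to 32695 per table, which share libraries and lie partly in the same genes, so they are given without a p. The rho with GC content was between 0.23 and 0.32, and with the repeat-masked share between 0.12 and 0.26. Over peaks of 1 bin the rho with GC content was between 0.14 and 0.27, and that with the distance to the TSS between 0.09 and 0.16. Pearson's r with the masked share was between 0.22 and 0.37. Bins with no masked base had a median level of 2.63 in males at 8 weeks, those masked over 75 to 100% of their length 3.00 and those masked entirely 2.93. At 3 weeks in males the same medians were 1.96, 2.19 and 2.09. The strongest 1% of bins in males at 8 weeks (178 bins, from 3.95 upward) had a median masked share of 91.4%, against 14.4% for all later-intron bins of that table.

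The 8-week and the 3-week table of a sex could be compared at bins of identical coordinates, each average covering both maternal diets. In females the median of 13121 later-intron bins was 0.18 higher in the 8-week table on the log2 scale, and over all 71972 autosomal bins shared it was 0.22 higher. In males these values were 0.60 (12325 bins) and 0.63 (68657 bins). Relative to that shift of all autosomal bins, later-intron bins were 0.03 lower in both sexes, so the class as a whole moved with the rest of the autosomes. The following differences are as deposited and are to be read against the shifts of 0.22 and 0.63.

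The difference was larger in bins made of repeats. In females, later-intron bins with no masked base had a median difference of 0.14 (2121 bins), those masked at 25 to 75% had 0.20 (3093), those at 75 to 100% had 0.34 (1692) and those entirely masked had 0.42 (331). In males the same classes had 0.57, 0.59, 0.72 and 0.83. First-intron bins gave 0.15, 0.20, 0.32 and 0.37 in females, and distal intergenic bins 0.16, 0.22, 0.37 and 0.42, so the gradient was not particular to later introns. Base composition moved with these classes too: in females the median number of CG per 100 bases was 1.80 in bins with no masked base and 4.19 in entirely masked ones. The level moved with them as well, since masked bins were the stronger ones, and the median difference in females was 0.14 in the lowest and 0.34 in the highest of 5 equal groups by level. In males it was 0.61 in the lowest, 0.54 in the middle and 0.72 in the highest group. The parts of base composition and level in the result were not tested.

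**Figure D4:**
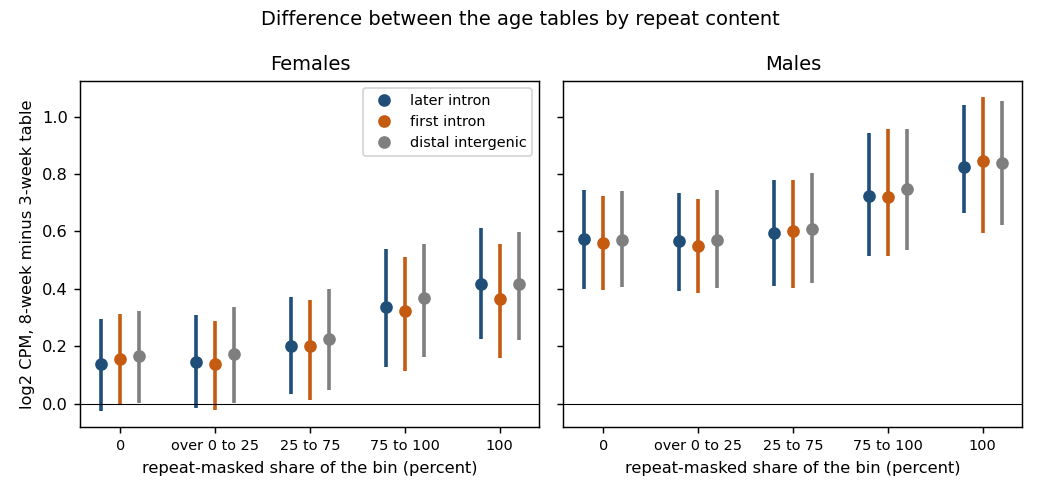
Difference in average log2 CPM between the 8-week and the 3-week table (y axis) at bins of identical coordinates, by the repeat-masked share of the bin, in females (left) and males (right); points are medians and bars run from the 25th to the 75th percentile. Medians of later-intron bins go from 0.14 to 0.42 in females and from 0.57 to 0.83 in males.

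Among bins above the autosomal median in at least 1 of both tables, females had the largest excess at 8 weeks in Pclo, Eml6, Mcf2l and Fam71d. Pclo, which encodes a presynaptic scaffold protein, was at 2.85 at 3 weeks and 4.35 at 8 weeks in intron 3 of 19, which is 1.28 above the autosomal shift. Eml6, a microtubule-associated protein gene, was at 2.79 and 4.14, and Fam71d at 2.65 and 3.90. The Pclo bin was also higher at 8 weeks in males (2.74 and 4.55), as was that of Fam71d (2.91 and 4.16). All of these except Mcf2l were masked at 81.2% or more.

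In males the largest excess at 8 weeks was in 2210408I21Rik (2.36 and 4.39, which is 1.39 above the autosomal shift), Cyp3a16 (2.24 and 4.16), Nox4 (1.89 at 3 weeks and 1.90 more at 8 weeks) and Gm4924 (3.36 and 5.22). Cyp3a16 is a cytochrome P450 gene of the Cyp3a family, which oxidises steroids and drugs, and its bin lies in intron 10 of 12. In females the Cyp3a16 bin was at 2.81 at 3 weeks and 3.32 at 8 weeks. Nox4, which encodes an NADPH oxidase, held its bin in intron 17 of 17, and females had none there. The Gm4924 bin in intron 7 of 7 was at 3.74 and 4.77 in females.

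The largest excess at 3 weeks in females was in Herc6 (2.99 at 3 weeks and 2.11 at 8 weeks), Stk24 (2.88 and 2.08), Arid5b (3.09 and 2.35) and Nub1 (2.93 and 2.21). Herc6 and Nub1 belong to the ubiquitin-like protein systems, Stk24 encodes a kinase and Arid5b a DNA-binding protein. These 4 bins were masked at 15.9% or less. In males the corresponding bins were in Aven (2.86 and 2.43), Zfp948 (2.79 and 2.39), Mtus2 (2.75 and 2.35) and Psmd1 (2.87 and 2.49), a proteasome subunit gene, whose bin was masked at 92.6%. Relative to the autosomal shift of each sex, Herc6 was at -1.10 and Aven at -1.06, so the lowest bins of the sexes were alike once centred. More than 1 above the shift lay 8 of 13121 later-intron bins in females and 36 of 12325 in males, and more than 1 below it lay 2 and 4. The same counts were not made over all shared autosomal bins, so they do not show whether the class differs from the rest.

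Among the 100 bins with the largest 8-week excess, 64 bins in females and 65 in males were masked at 75% or more. Among the 100 bins at the other end these counts were 18 and 15, and over all bins above the median in 1 table the share was 18.4% in females and 19.6% in males. These 100 bins belonged to 83 host genes in females and 87 in males. Where the difference was measured in both sexes at overlapping bins (5599 bins), 63.1% lay on the same side of the autosomal shift in females and males, with a rho of 0.39 across bins.

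The 30 shared bases printed with Zfp160, Gm4924 and Pclo were present on either strand in 53 distinct later-intron bins of 27 host genes. They were chosen from these 3 bins after their values were seen. Related sequence goes beyond the run, since Fam71d shared at least 60 bases, the longest run searched for, with Pclo and 55 with Zfp160. In males at 8 weeks, 23 of 17710 later-intron bins held them (0.130%), with a median level of 3.93, against 2.69 for all. In females at 8 weeks, 26 of 19860 did (0.131%), with a median of 3.53 against 2.57. Without the 3 source bins these medians were 3.86 in males and 3.52 in females. All later-intron bins masked entirely had medians of 2.93 in males and 2.83 in females at 8 weeks. The difference between ages at such bins had a median of 1.31 in males (20 bins, 0.87 to 1.85) and 0.56 in females (23 bins, from 0.03 to the value of Pclo), and of 1.25 and 0.56 without the source bins. All later-intron bins masked entirely had 0.83 and 0.42. Distal intergenic bins with the run, which were not used to find it, had a median difference of 1.01 in males (101 bins) and 0.57 in females (103 bins). Over all shared distal intergenic bins it was 0.63 and 0.24, and over those masked entirely 0.84 and 0.42. No promoter bin of any table held the run, and 0.0355% of first-intron bins and 0.284% of distal intergenic bins of males at 8 weeks did.

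Copies of the named bins elsewhere in the assembled genome were counted at 90% identity over 80% of the bin. The bins of Gm36264, Snx29, Gm4924, Cyp3a16, Nox4, Arid5b, Herc6 and Stk24 were found once, at their own place. That of Zfp160 was found 6 times, Pclo 55 times, Rlf 226 times, Fam71d 296 times, Eml6 545 times, 2210408I21Rik 1495 times, Acnat1 2077 times and Negr1 3641 times. At 99% identity every named bin matched its own place alone. How the authors treated reads that fit several places is not given in the sources used here.

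Females and males could be compared at identical coordinates for only 16 later-intron bins at 3 weeks and 15 at 8 weeks, so bins overlapping by 50% of the shorter bin are also given. By overlap, females were 0.32 above males at 3 weeks (median of 11178 bins) and 0.09 below them at 8 weeks (8470 bins). All autosomal bins gave 0.32 and -0.10, so the median of later-intron bins lay within 0.01 of that of all autosomal bins. CPM is not divided by the length of a bin, and named bins are therefore limited to pairs of full length. The following differences are as deposited and are to be read against these autosomal medians of 0.32 and -0.10. At identical coordinates the autosomal medians were 0.32 and -0.08.

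At 3 weeks the largest female excess was in Wdr25 (2.80 in females and 1.63 in males), Gm9750 (3.21 and 2.07) and Zfp260 (2.96 and 1.86). The largest male excess was in Nkain2 (2.46 in females and 3.07 in males), Gm10130 (2.68 and 3.24) and Vwa8 (2.18 and 2.66). At 8 weeks the female excess was largest in Sugct (3.86 and 3.11), Plekha7 (3.00 and 2.35) and 1700019J19Rik (3.11 and 2.46), and the male excess in Gm10130 (2.93 and 4.43), Ppp4r1l-ps (2.47 and 3.86) and Gm16242 (2.51 and 3.76). Gm10130 was thus higher in males at both ages. At identical coordinates the bin in intron 5 of 7 of Esr1, the estrogen receptor gene, was at 2.67 (females) and 2.37 (males) at 3 weeks and at 2.77 and 2.69 at 8 weeks. Relative to the autosomal median, its female minus male difference was -0.03 at 3 weeks and 0.16 at 8 weeks. Also at identical coordinates, females exceeded males most at 3 weeks in Dab1 (2.51 and 1.96), Adck1 (2.70 and 2.20) and C530008M17Rik (2.49 and 1.99), and least in Osbp2 (2.36 and 2.19). At 8 weeks the male excess at identical coordinates was largest in Tenm3 (3.37 in females and 3.88 in males), Khdrbs2 (3.17 and 3.63) and Trim34a (4.08 and 4.50), while Pik3ap1 was at 2.96 and 2.85.

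The host genes with the most distinct later-intron bins were large genes, between 423 and 2961 kb long in GENCODE M21. Bins of both sexes that overlap with shifted borders count separately here, and bins of a gene often lie close together. With bins within 10 kb merged, Camta1 had 8 regions, Wwox 11, Cdh13 17, Cdh4 2, Nav2 12, Zfhx3 24, Csmd2 5, Sdk1 10, Spock1 7, Trappc9 6, Shank2 3 and Fgfr2 50, so the order of the genes was not kept. Camta1, a calmodulin-binding transcription activator, had 491 bins, spread over 13 introns. Its tables held 138 and 102 bins in females at 3 and 8 weeks and 165 and 103 in males. Wwox, an oxidoreductase gene at a fragile site, had 379, of which 294 lay in intron 8, with 106 and 96 bins in females and 122 and 100 in males. Cdh13 had 298 and Cdh4 277, both cadherin genes, and 228 of those of Cdh4 lay in intron 2. Nav2 had 236, Zfhx3 228, Csmd2 227, Sdk1 218, Spock1 205, Trappc9 194 and Shank2 190.

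Fgfr2, a fibroblast growth factor receptor gene, ranked second with 481 bins, but 463 of them lay outside its extent in RefSeq. In GENCODE M21 the gene spans 2961 kb and in RefSeq 104 kb, and 474 of its bins were in intron 2 of the longer models. Its count therefore describes a region of chromosome 7 beyond the receptor gene.

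**Figure D5:**
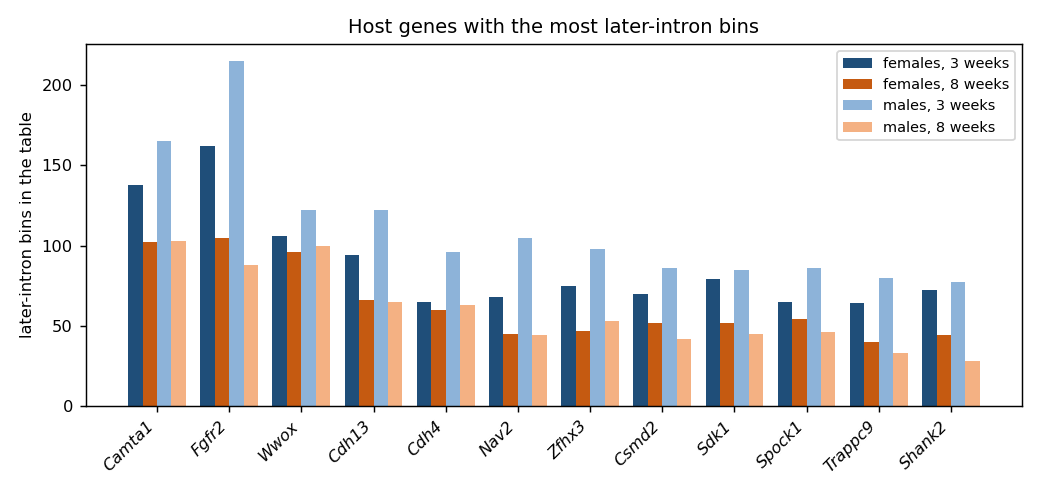
Number of later-intron bins (y axis, from 0) in the 12 host genes with the most distinct bins, in the 4 tables of females and males at 3 and 8 weeks. Every gene has fewer bins at 8 weeks than at 3 weeks in both sexes; most Fgfr2 bins lie outside the RefSeq gene.

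Gene lists for this tissue and mark are given by their counts beside all 24107 autosomal genes with at least 2 introns, of which 9177 (38.1%) held a later-intron bin, with a median level of 2.37 over the 6 tables. Of 451 zinc finger genes, 155 (34.4%) held a bin, with a median of 2.37. Zfp423, Zfp536, Zbtb7c and Zfp407 held the most, with 134, 132, 121 and 80. Among the strongest 1% of bins in females at 8 weeks, 11 of 199 were in zinc finger genes (5.53%), against 1.64% of all later-intron bins there, and in males at 8 weeks 9 of 178 (5.06%) against 1.55%.

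All 48 giant neuronal adhesion and fragile-site genes held a bin, with a median level of 2.46. Wwox, Csmd2 and Rbfox3 (137 bins) were among those with the most. These genes are long, and per Mb of gene they held 48.9 distinct bins against 66.9 for all genes. Glutamate and GABA receptor genes held a bin in 33 of 43 cases, led by Grid1 (133), Grik4 (114), Grik3 (47) and Grin2b (42), and 57.5 bins per Mb of gene. Voltage-gated and potassium channel genes did in 67 of 101, led by Cacna1c (124), Cacna1a (118), Kcnq1 (89) and Cacna1d (87), and 88.3 bins per Mb. Among axonemal dynein and muscle genes 23 of 30 did, with 54 bins in Dnah8, 39 in Dnah14, 33 in Dnah7a and 26 in Dnah6, and 61.7 bins per Mb. Collagen genes did in 32 of 43, with 123 bins in Col23a1, 57 in Col4a2, 54 in Col13a1 and 42 in Col26a1, and had the highest number per Mb of these lists, 112.

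Genes of the hepatocyte, the main cell of the liver, held a bin in 13 of 44 cases (29.5%), with a median level of 2.28. Ass1, of the urea cycle, had 15, the transcription factor gene Hnf4a 10, the fatty acid receptor gene Ppara 9 and Serpina1b 7. The number of such genes with a bin was 13 at 3 weeks and 7 at 8 weeks, and over all genes it was 8674 and 7014. Of genes listed as writing, reading or erasing H3K9 methylation or acting with these enzymes, 12 of 27 held a bin, led by the DNA methyltransferase gene Dnmt3a (20), the demethylase genes Kdm4a (15) and Kdm4b (12), and Pphln1 (10), of the HUSH silencing complex.

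Cytochrome P450 genes and vomeronasal receptor genes, many of them in clusters of related copies, had the highest median levels of the 11 lists, at 3 weeks (2.39 and 2.50, against 2.20 for all genes) and at 8 weeks (2.90 and 3.00, against 2.63). Of 125 cytochrome P450 genes, 46 (36.8%) held one, with a median level of 2.62, and the members with the most were Cyp39a1 (10, median 2.25), Cyp2j8 (9, median 2.90), Cyp2c66 (8, median 2.70) and Cyp2j14-ps (8, median 2.50). Of 269 vomeronasal receptor genes, 52 (19.3%) held one, with a median of 2.72, led by Vmn2r60 (10 bins) and Vmn2r-ps26, Vmn2r-ps54 and Vmn2r56 (8 each). Of 37 germline and meiosis genes 22 held one, with a median of 2.47, and Spata16 (35), Tdrd9 (22), Piwil1 (17) and Spata17 (16) led. Reads of near-identical copies in such clusters can be shared between members, so counts per member are uncertain.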

How the data were processed

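Per the labels and the study's methods, reads were aligned by the authors to mm10 (GRCm38), broad peaks were called with MACS2, merged over conditions within each sex, divided into bins and counted. The deposited tables hold, per bin, coordinates, annotation, length and distance to the TSS in bases, the authors' average log2 CPM, and the fold change, p-value and adjusted p-value of the authors' comparison. These last 3 columns were not used. The study's methods give only an approximate number of reads per library, so exact totals were not used here.

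Scripts (Python 3.11.15, pandas 2.3.3, scipy 1.17.1) selected the bins, matched hosts to GENCODE M21 (98.8% of distinct bins; 1.12% matched through RefSeq identifiers and 69 bins had no host) and read sequence from GRCm38. Copies were counted with BLAST+ 2.17.0. Functions were tested on simulated data. Shared bins have identical coordinates, or overlap by 50% of the shorter bin where stated. Named genes are the 12 hosts with most bins, the 3 strongest bins per table, the 5 strongest found in all tables, the 4 largest rises and falls per sex, the 3 largest sex differences per age in either direction, up to 4 members per list, and the extremes of intron number and distance. The members and lists were chosen with earlier results of these data known. One gene that the rule names is not reported here.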

Additional observations from a re-analysis of the deposited data

How the results depend on the processing

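No paired analysis was possible because the tables hold 1 average per bin and no value per library, and leaving out a replicate was impossible for the same reason. No interval for counting error can be given, since the averages hold no counts per library and the methods give the depth only approximately.

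Keeping only bins above the autosomal median left 11953, 8488, 14734, 7550, 9159 and 12567 later-intron bins in the tables of females at 3 and 8 weeks, males at 3 and 8 weeks, control females and control males. Merging bins within 10 kb left 14630, 12761, 15961, 13226 and 15408 regions in these tables, leaving out males at 8 weeks, where the count stayed within 1.5 times. Restricted to the 8 bins with identical coordinates in all tables, the median levels were 2.88, 3.23, 2.44, 3.46, 3.12 and 2.83. Centred on all autosomal shared bins, the difference between ages turned to -0.0339 in females and -0.0315 in males, by identical coordinates and by overlap, and the female minus male difference at 3 weeks went from 0.36 to 0.0324, or 0.0011 by overlap. At 8 weeks that difference was -0.20 at identical coordinates and -0.1176 when centred there, and -0.0913 by overlap and 0.0043 by overlap and centred. The share found in all 6 tables, between 0.0245% and 0.0452% by identical coordinates, was 22.4%, 30.0%, 18.3%, 34.2%, 27.9% and 20.3% by an overlap of 1 base, 19.1%, 25.5%, 15.5%, 28.5%, 23.8% and 17.1% by 50% of the shorter bin, and 0.0038%, 0.0050%, 0.0031%, 0.0056%, 0.0047% and 0.0034% by peak. Of the 12 host genes with the most bins, 1 remained among the leading 12 after merging (Fgfr2, whose bins lie mostly outside the RefSeq gene) and 0 by bins per Mb over host genes of any length. Zfhx3, with 24 merged regions, tied with the last of the leading 12, where ties were ordered by name. The rho of level with peak length, below 0 over all bins, was above 0 over peaks of 1 bin in all 6 tables, at 0.55, 0.44, 0.61, 0.45, 0.48 and 0.54, where a longer peak is a longer bin. Comparison by peak, by overlap with centring, by full length and by masked share was chosen after seeing the data.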

Other observations

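By chromosome, distinct later-intron bins per Mb of annotated later intron were highest on chromosomes 5 (132) and 11 (131) and lowest on chromosome 3 (68.4).

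By type of host, 88.4% of the distinct bins lay in protein-coding genes and 6.14% in lincRNA genes. For 28.5% of the bins the gene with the nearest start site was not the host, as with Gm36264, where it was Gtpbp4, and Nox4, where it was Tyr.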
